A study of Mus musculus with 12 samples.

Results

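Bipolar cells carry the signal of rods and cones to the inner retina, and their genes were followed here in whole mouse retina across age and raised intraocular pressure (IOP). The set holds the 8 genes Prkca, Trpm1, Pcp2, Cabp5, Gng13, Nyx, Vsx1 and Gpr179, found by symbol among the 25124 genes that each of the 2 expression tables lists. All 8 were present once in both tables and were expressed enough to be tested, with an average of 0.5 FPKM or more across a table (13731 and 13718 genes were). FPKM is the number of reads in the exons of a gene per kilobase of its transcript, scaled to the size of the library. It is meant to let levels of different genes be set side by side, but these libraries differed by transcript length, as given below.

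ON bipolar cells invert the photoreceptor signal. Glutamate released in darkness binds the metabotropic receptor encoded by Grm6, a Go-type G protein is activated, and the cation channel TRPM1 closes, so that light opens it. Rod bipolar cells are known for protein kinase C alpha (Prkca), while Vsx1 belongs to cone bipolar cells.

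All 12 libraries came from whole retinas of wild-type (WT) mice, in a study that used C57BL/6 animals, with 2 libraries in each of 6 groups. Each animal had 1 eye raised to 30 mmHg and the untreated contralateral eye kept as the control, so no group came from animals without a procedure. The first table holds 8 libraries. The groups 3mo control and 3mo IOP are the eyes of animals of 3 months, and 18mo control and 18mo IOP those of animals of 18 months, taken on day 2 after 1 h at that pressure. The 4 libraries of the second table were 4xIOP and 4xIOP control retinas, taken on day 2 after the last of 4 such elevations given biweekly, starting at the age of 3 months. Which control and which treated eye belonged to the same animal is not stated, and by the study's methods RNA was isolated from the retina of each eye. Because this is bulk tissue, fewer bipolar cells and less RNA per cell cannot be told apart.

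Depth lay between 39766241 and 59455057 aligned tags per library, recovered from the step size of the FPKM values, and between 44.18% and 71.52% of the tags lay in exons. At this depth each bipolar cell gene was supported by 308 to 23150 reads in every library. Rod markers dominated all libraries with a summed level of the 8 rod genes between 5062 and 25170 FPKM. The libraries differed in a property that bears on the comparison of ages. Short protein-coding transcripts (under 1000 bases) had a median FPKM that was 3.26 and 8.14 times that of long ones (4000 bases or more) in 3mo control libraries. This ratio was 6.15 and 5.31 in 3mo IOP libraries, but between 1.75 and 2.05 in the 4 libraries of 18 months. The second 3mo control library, at 8.14, stood apart from all others. In the second table, from younger animals, the ratio was 2.25 and 2.13 in 4xIOP control and 2.01 and 2.87 in 4xIOP libraries. Within the first table age and this ratio cannot be told apart.

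The measured transcripts differed widely in length. Gng13 (chr17:25717528-25719102, plus strand, mm10) was counted over 357 bases of exon and Pcp2 (chr8:3623374-3625049, minus strand) over 467. Cabp5 (chr7:13398155-13408878, plus strand) had 1737 and Vsx1 (chr2:150680702-150689137, minus strand) 3561 bases. The long transcripts were those of Nyx (chrX:13461090-13489321, plus strand) with 5579, Trpm1 (chr7:64153835-64269759, plus strand) with 5666, Prkca (chr11:107933387-108343888, minus strand) with 8350 and Gpr179 (chr11:97332110-97352356, minus strand) with 9281 bases. Pet100 overlapped Pcp2 and Chtf18 overlapped Gng13, both on the opposite strand, and the counting used strand. The microRNA gene Mir211 lies within Trpm1 on the same strand.

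The sequences before the start sites of 4 members are shown, because these genes stood at the extremes of the age comparison in control eyes (Gpr179 and Trpm1 with the largest positive and Gng13 with the most negative one, which was not called) or carried the motif searched (Trpm1 and Cabp5). They are the 250 bases before the transcript start, 5′ to 3′, from the RefSeq promoter table of build GRCm38.p6, and all 8 members were matched in that table by symbol, 7 of them at the start of the deposited transcript and Pcp2 13 bases from it. Capitals mark TAATCC or its reverse complement GGATTA, the core bound by the photoreceptor and bipolar homeodomain factors Otx2 and Crx. The windows are chr7:64153585-64153834 for Trpm1, chr7:13397905-13398154 for Cabp5, chr11:97352357-97352606 for Gpr179 and chr17:25717278-25717527 for Gng13.
Trpm1: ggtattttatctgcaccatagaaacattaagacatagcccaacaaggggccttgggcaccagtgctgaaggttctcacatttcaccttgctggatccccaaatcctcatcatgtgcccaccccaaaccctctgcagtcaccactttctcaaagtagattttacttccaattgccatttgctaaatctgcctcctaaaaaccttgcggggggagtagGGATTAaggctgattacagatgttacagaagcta
Cabp5: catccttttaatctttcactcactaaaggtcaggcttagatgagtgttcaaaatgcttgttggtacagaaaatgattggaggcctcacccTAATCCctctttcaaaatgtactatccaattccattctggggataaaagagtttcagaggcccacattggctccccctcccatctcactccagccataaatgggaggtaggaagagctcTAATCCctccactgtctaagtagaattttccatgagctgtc
Gpr179: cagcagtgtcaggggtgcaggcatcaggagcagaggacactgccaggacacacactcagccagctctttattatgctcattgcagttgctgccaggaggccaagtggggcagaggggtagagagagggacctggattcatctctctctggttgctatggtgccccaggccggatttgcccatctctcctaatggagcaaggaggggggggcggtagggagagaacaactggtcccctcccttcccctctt
Gng13: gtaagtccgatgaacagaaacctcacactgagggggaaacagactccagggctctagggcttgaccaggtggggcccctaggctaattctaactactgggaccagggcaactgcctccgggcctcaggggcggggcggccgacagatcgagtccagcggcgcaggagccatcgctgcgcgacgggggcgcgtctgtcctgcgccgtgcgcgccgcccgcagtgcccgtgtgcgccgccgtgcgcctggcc
The motif began 34 bases before the start of Trpm1 and 160 and 41 bases before the start of Cabp5. Searched on both strands over 250 bases before to 50 after the start, TAATCC was found in 2 of 8 members and in 7.06% of all 32851 promoters, and TAATTA in 0 of 8 and in 5.29%. Base composition of these 300-base windows also set members apart: Gng13 and Prkca had 72% and 75.3% G or C with 34 and 42 CpG dinucleotides, and the other 6 members had between 44.7% and 57.7% with 0 to 5.

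At 3 months the levels per transcript length spanned a wide range with a fixed order. Libraries differed in the level of short against long transcripts, and this limits the ranking of genes of unlike length. In 3mo control retinas the mean FPKM was 647 ± 482 (SD, n = 2) for Gng13, 248 ± 123 for Pcp2, 59.0 ± 17.8 for Cabp5 and 19.3 ± 5.50 for Trpm1. Prkca followed with 17.6 ± 7.09, Gpr179 with 5.89 ± 2.74, Vsx1 with 3.23 ± 0.680 and Nyx with 1.43 ± 0.388. The same order of means held in the other 3 groups of the first table. Libraries of Gng13 and Pcp2 overlapped in 3mo control and 18mo IOP retinas, those of Trpm1 and Prkca in 3mo control, those of Cabp5 and Trpm1 in 18mo IOP, and those of Vsx1 and Nyx in both groups of 18 months, so the spread between libraries exceeded the gap between these neighbours there. Within single libraries Gng13 was nonetheless above Pcp2, and Trpm1 above Prkca, in all 12. In the second table Trpm1 stood above Cabp5 in both groups, with 37.4 ± 3.03 and 20.04 ± 2.32 FPKM in 4xIOP control retinas, and only Gng13 and Pcp2 overlapped, in 4xIOP retinas.

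**Figure D1:**
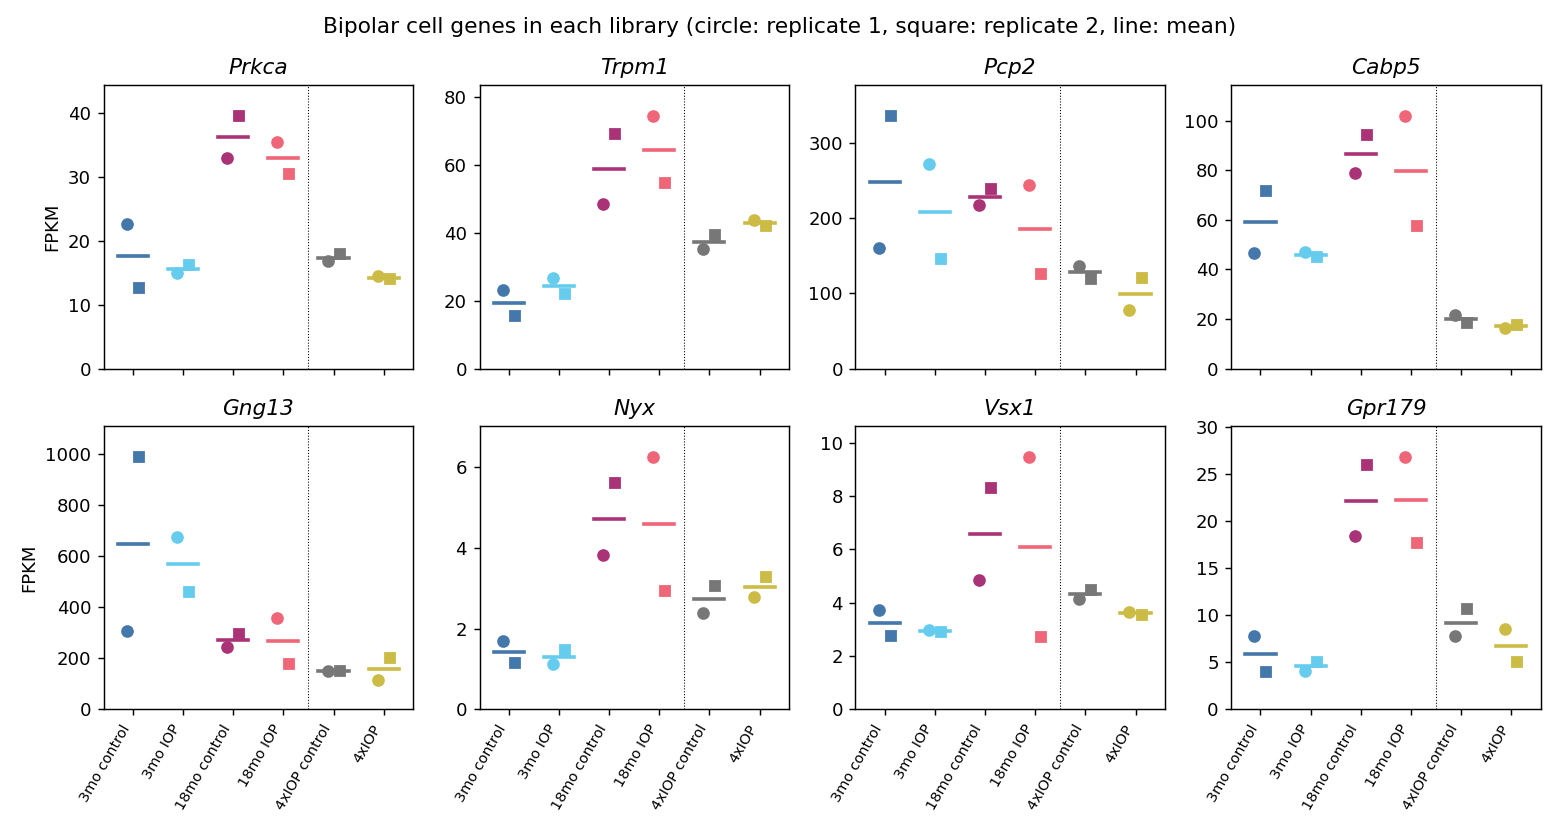
FPKM of each bipolar cell gene in every library, with its own linear axis from 0 for each gene, by group on the horizontal axis. Circles and squares are replicates 1 and 2, lines are means, and the dotted line parts the 2 tables. For Gpr179, Trpm1, Nyx and Prkca all 4 libraries of 18 months lie above all 4 of 3 months in the first table.

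The first question was how bipolar cell genes differed between untreated eyes of 3 and 18 months. Of the 8 genes, 4 were called higher at 18 months (Gpr179, Trpm1, Nyx and Prkca) and 0 lower. A gene was called where limma gave an adjusted p of 0.05 or less (Benjamini-Hochberg, over all genes tested) and a log2 fold change of 1 or more in size. Of all 13731 genes, 11.6% were called higher and 11.6% lower, an even split (50.1% of called genes were higher) that became 35.0% with median-of-ratios size factors. The median log2 fold change of the 8 genes was 0.98, against 0.16 for all tested genes.

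Of the 4 genes called higher, Gpr179, Trpm1 and Nyx encode proteins of the dendritic tips of ON bipolar cells. Gpr179, the orphan receptor that anchors the regulators of G protein signalling at the dendritic tips, had 7.82 and 3.96 FPKM in the 3mo control and 18.3 and 25.9 in the 18mo control libraries. Its groups did not overlap, and the log2 fold change was 1.87 ± 0.34 (SE, adjusted p = 0.0067 in limma). Trpm1, the channel itself, had 23.2 and 15.4 FPKM at 3 months and 48.5 and 69.1 at 18 months. Both aged libraries were more than 2 times the higher young one, with a fold change of 1.59 ± 0.27 on the log2 scale (limma, adjusted p = 0.00628). Nyx, the leucine-rich repeat protein nyctalopin that holds TRPM1 at the membrane, had 1.71 and 1.16 FPKM at 3 months and 3.82 and 5.62 at 18 months. This was the lowest gene of the set, and its log2 fold change was 1.43 ± 0.34 (limma, adjusted p = 0.0134).

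Prkca, the kinase used as the classical marker of rod bipolar cells, had 22.6 and 12.6 FPKM in the 3mo control and 33.0 and 39.5 in the 18mo control libraries. The groups were apart, and the log2 fold change of 1.07 ± 0.27 lay just past the fold threshold (limma, adjusted p = 0.015). Vsx1, a homeodomain factor of cone bipolar cells, had 3.71 and 2.75 FPKM at 3 months and 4.87 and 8.31 at 18 months. Its groups did not overlap either, but the log2 fold change of 0.89 ± 0.48 did not pass the test (limma, adjusted p = 0.155).

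The 3 genes with the shortest transcripts were not called. Cabp5, a calcium-binding protein of rod bipolar and some cone bipolar cells, had 46.4 and 71.6 FPKM at 3 months and 78.8 and 94.1 at 18 months. These groups were apart by a small margin, with a log2 fold change of 0.57 ± 0.31 that was not called (limma, adjusted p = 0.155). Pcp2, a modulator of Go-type G proteins in ON bipolar cells, had 160 and 335 FPKM at 3 months and 217 and 239 at 18 months. The 2 aged libraries lay between the 2 young ones, and the log2 fold change was -0.02 with a 95% interval from -1.09 to 1.04. Gng13, the G protein gamma subunit of ON bipolar cells, had 306 and 988 FPKM at 3 months and 245 and 294 at 18 months. It was the only member lower at 18 months without overlap, but the young libraries differed 3.23-fold from each other and the log2 fold change of -1.03 ± 0.55 was not called (limma, adjusted p = 0.156).

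In all, 6 members were higher and 1 was lower at 18 months without overlap between the groups. Over all tested genes these shares were 45.7% and 32.8%.

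IOP eyes of the 2 ages gave a second set of libraries from the same kind of animals, in which the contralateral eye belonged to the groups above, so the 2 comparisons of age are not independent. The same 4 genes were called higher and 0 lower, beside 10.2% and 11.6% of all genes. Gpr179 had 4.07 and 5.06 FPKM in 3mo IOP and 26.7 and 17.6 in 18mo IOP retinas, a change of 2.14 ± 0.34 on the log2 scale (limma, adjusted p = 0.00562). Trpm1 had 26.8 and 22.0 against 74.4 and 54.7 FPKM, and the log2 fold change was 1.37 ± 0.27 (limma, adjusted p = 0.00932). Again the lower of the aged libraries was about 2 times the higher young library for Trpm1 and more than 3 times for Gpr179.

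Nyx had 1.12 and 1.47 FPKM in 3mo IOP and 6.26 and 2.94 in 18mo IOP retinas, and its log2 fold change was 1.43 ± 0.34 (limma, adjusted p = 0.0151). Prkca had 15.0 and 16.2 against 35.4 and 30.5 FPKM, with a fold change of 1.05 ± 0.27 on the log2 scale (limma, adjusted p = 0.0181). Both genes were apart between the ages, although the 2 aged libraries of Nyx differed by more than 2-fold from each other.

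Cabp5 in IOP eyes had 47.1 and 44.9 FPKM at 3 months and 102 and 57.5 at 18 months, a log2 fold change of 0.73 ± 0.31 that was not called (limma, adjusted p = 0.0876). Vsx1 had 2.99 and 2.89 FPKM at 3 months and 9.46 and 2.71 at 18 months. One aged library of Vsx1 was about 3 times and the other slightly below the young ones, so the groups overlapped, and the log2 fold change was 0.72 ± 0.48 (limma, adjusted p = 0.25). Pcp2 had 272 and 145 against 245 and 126 FPKM and overlapped, with a log2 fold change of -0.18 and a 95% interval from -1.24 to 0.88. Gng13 had 675 and 460 against 357 and 177 FPKM, lower without overlap and not called, at -1.15 ± 0.55 (limma, adjusted p = 0.125). Without overlap, 5 members were higher and 1 lower in IOP eyes, beside 43.2% and 34.5% of all genes.

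**Figure D2:**
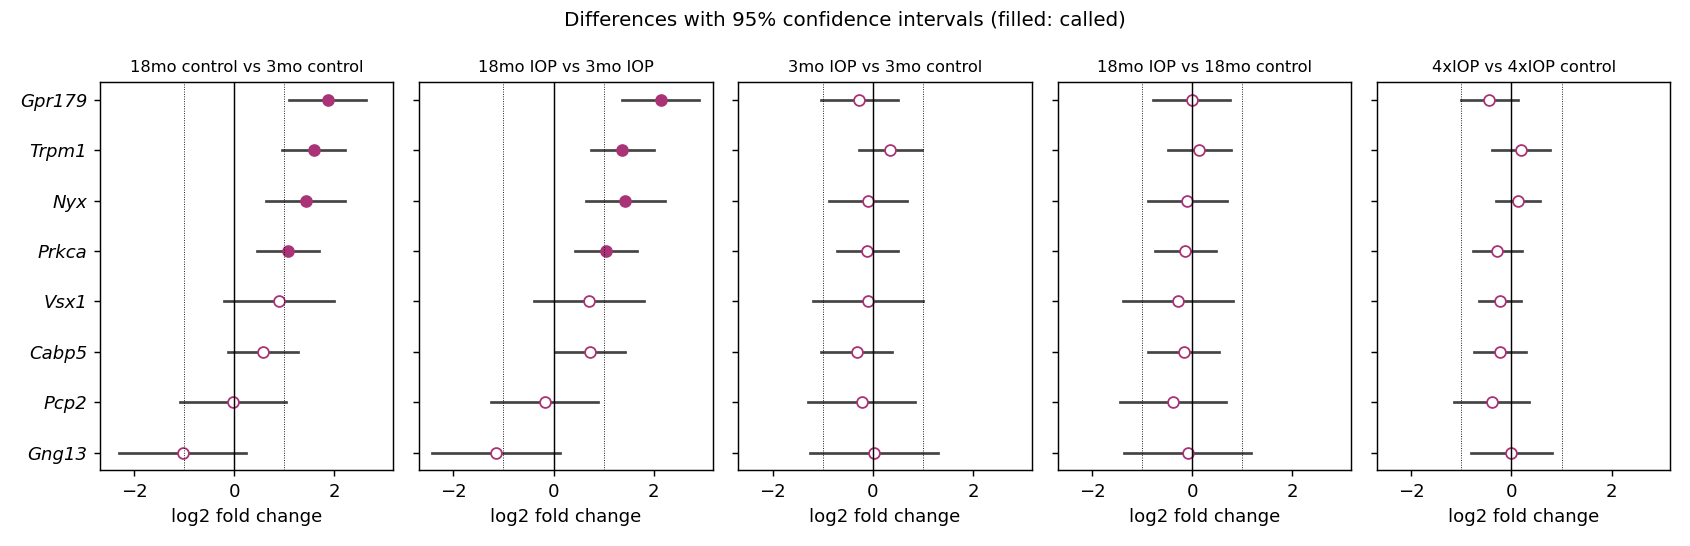
Log2 fold change (horizontal axis) of each bipolar cell gene in 5 comparisons, with the 95% confidence interval from limma as a line and dotted lines at -1 and 1. Filled points were called: Gpr179, Trpm1, Nyx and Prkca in both comparisons of age, and none in the 3 comparisons of IOP with control.

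The members called and not called with age also parted by transcript length. All 4 members with transcripts of at least 4000 bases were called higher in both comparisons, with log2 fold changes between 1.07 and 1.87 in control eyes. None of the 4 shorter ones was called, and their log2 fold changes ran from -1.03 to 0.89. Among all tested genes the share called higher in control eyes was 17.9% for transcripts of at least 4000 bases and 9.14% for shorter ones. The median log2 fold change of all genes was -0.26 under 500 bases, the class of Gng13 and Pcp2, and -1.02 for 500 to 1000. It then rose from -0.23 for 1000 to 2000 and 0.24 for 2000 to 4000, to 0.48 for 4000 to 8000 and 0.58 above that.

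Against the genes of their own length class, 7 of 8 members lay above the class median in control eyes. Gpr179 exceeded it by 1.30, Trpm1 by 1.11, Nyx by 0.95, Cabp5 by 0.80, Vsx1 by 0.65, Prkca by 0.50 and Pcp2 by 0.24 on the log2 scale. Gng13 was 0.77 below. In IOP eyes the same 7 members lay above and Gng13 below, with values from -0.81 for Gng13 to 1.54 for Gpr179.

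**Figure D3:**
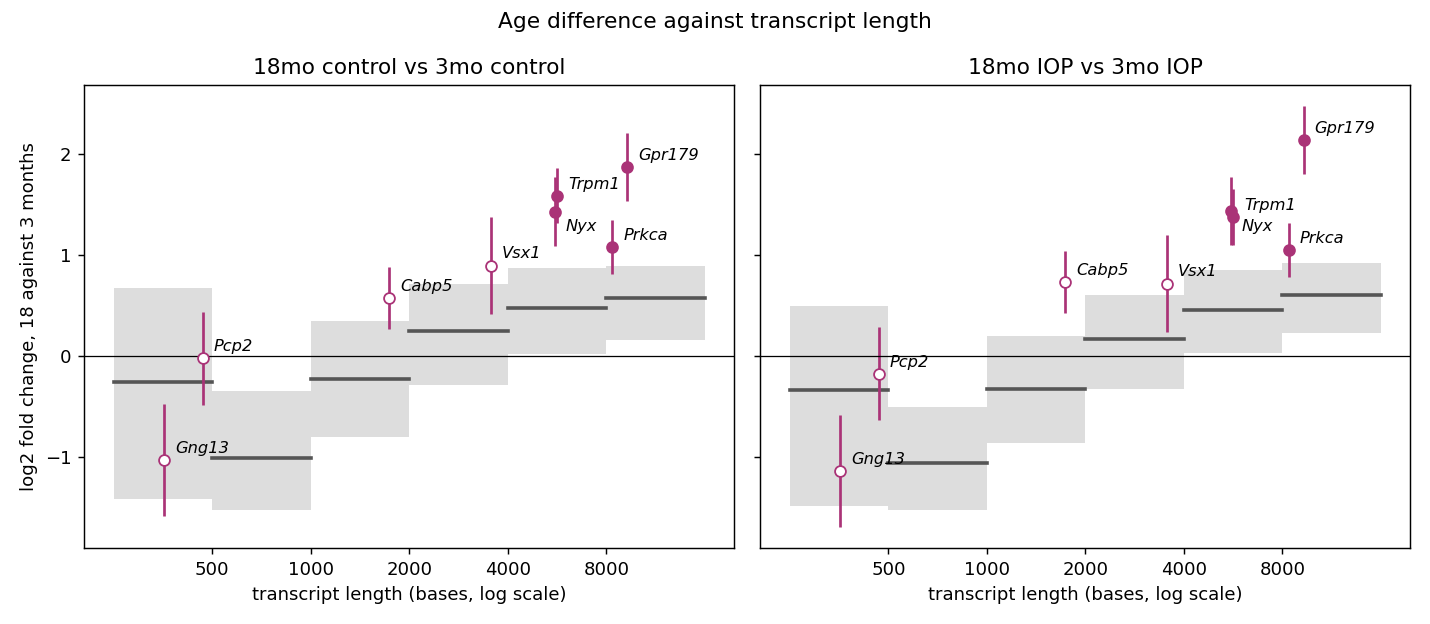
Log2 fold change from 3 to 18 months (vertical axis) against transcript length (horizontal log axis), in control eyes (left) and IOP eyes (right). Points are the bipolar cell genes with their SE, filled where called, and grey blocks give the median and the middle 50% of all tested genes in 6 length classes, the outermost drawn 1 doubling wide. From 500 bases up the medians of all genes rise with length, and the 4 called members lie above the middle 50% of their class.

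When the trend of each library with transcript length was removed (a spline over all tested genes), Gng13 in control eyes moved from -1.03 to -0.01 and Pcp2 from -0.02 to 1.03, the latter then called (limma, adjusted p = 0.04). Gpr179, Trpm1 and Nyx were still called, at 1.41, 1.19 and 1.04, and Prkca was not, at 0.62, so the count of members called higher was 4 again with Pcp2 in place of Prkca, while that over all genes went from 1595 to 1148. With trends of both length and GC content removed, Cabp5 was the member called in control eyes, at 1.12 (limma, adjusted p = 0.0207), beside 777 of all genes called higher. There Gpr179 was at 0.88, Trpm1 at 1.00, Prkca at 0.71 and Nyx at 0.69, all below the fold threshold, with adjusted p of 0.0133, 0.0132, 0.0121 and 0.111 in limma. In IOP eyes Gpr179 alone was called after removal of the length trend, at 1.59, and Gpr179 and Cabp5 after removal of both, at 1.17 and 1.23. No member other than Gng13 had a negative log2 fold change with age under either correction.

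Within 1 of the groups the ratio of the libraries followed transcript length. In 3mo control retinas the second library was 3.23 times the first for Gng13, 2.09 times for Pcp2 and 1.54 times for Cabp5. It was 0.741 times the first for Vsx1, 0.678 for Nyx, 0.665 for Trpm1, 0.556 for Prkca and 0.506 for Gpr179. This is exactly the order of transcript lengths, with every one of the 7 steps downward, in 2 libraries that carry the same label. In the other groups 2 to 5 of the 7 steps went downward, with 2 in 3mo IOP retinas.

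In the aged groups the 8 members moved together instead. All 8 were higher in the second than in the first 18mo control library, by 1.10 to 1.71 times, and all 8 were lower in the second than in the first 18mo IOP library, at 0.286 to 0.860 times. Summed levels of amacrine, horizontal, ganglion, cone, microglial and blood markers were also higher in the second 18mo control and lower in the second 18mo IOP library. Single genes of these lists did not all follow. Amacrine markers had summed levels of 7 genes of 35.6 and 75.5 FPKM in the first and second 18mo control and 80.0 and 18.3 in the first and second 18mo IOP library. Horizontal cell markers had 66.5 and 90.6, and 108 and 62.3 FPKM over 6 genes, ganglion cell markers 38.5 and 86.0, and 94.9 and 39.5 over 9, and cone markers 1335 and 1642, and 1234 and 678 over 7. Microglial markers had 37.9 and 42.1, and 110.7 and 54.4 FPKM over 6 genes, and blood markers 115 and 307, and 39.2 and 31.5 over 3. Rod markers went the opposite way, with 18293 and 16265, and 12375 and 14591 FPKM over 8 genes. Sums of Muller glia and pigment epithelium markers were lower, and those of lens markers higher, in the second library of both groups. The part of all these cells in the differences between bipolar cell genes was not tested.

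**Figure D4:**
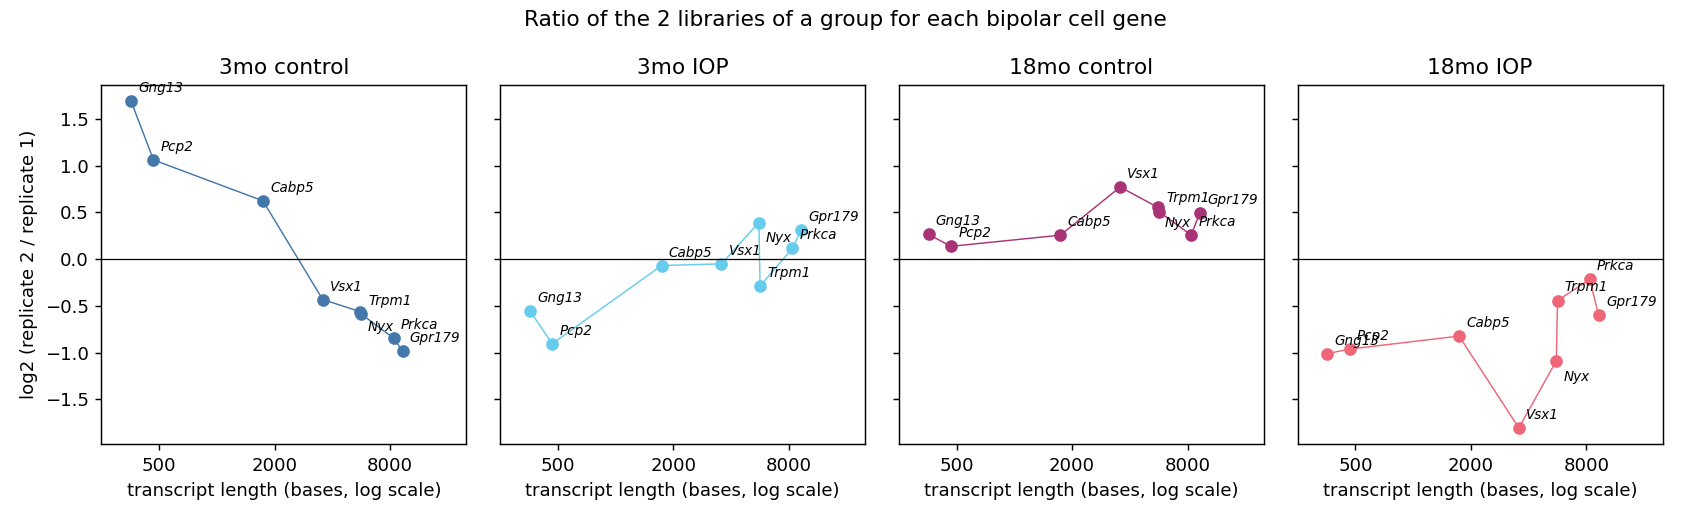
Log2 ratio of the second to the first library of a group (vertical axis) against transcript length (horizontal log axis) for the 8 bipolar cell genes in the 4 groups of the first table. In 3mo control retinas the ratio falls with every step in length, from 3.23 for Gng13 to 0.506 for Gpr179 on the linear scale, while all 8 points lie above 0 in 18mo control and below 0 in 18mo IOP retinas.

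Single libraries decided many of the calls, of the members and of all genes alike. Leaving out a library leaves its group with 1 sample, which is then assumed to vary like the others. Over all genes 1595 were called higher and 1590 lower in control eyes, against 2624 and 2093 without the first and 738 and 779 without the second 3mo control library, and 932 and 789 without the first and 610 and 566 without the second 18mo control library. In IOP eyes the count called higher was 1407, and 542, 401, 1371 and 1316 without the first and second 3mo IOP and the first and second 18mo IOP library. Without the second 3mo control library, the one with the ratio of 8.14, Gpr179 and Trpm1 were called and Nyx (1.22, limma adjusted p = 0.0729) and Prkca (0.66, adjusted p = 0.0296) were not, and Gng13 was at -0.19 (adjusted p = 0.764). Without the first 3mo control library 5 members were called, the same 4 higher and Gng13 lower at -1.88 (limma, adjusted p = 0.0112). Without the first 18mo control library 3 were called, Prkca having an adjusted p of 0.0558 in limma, and without the second none was, with adjusted p of 0.0502 for Trpm1 and 0.0512 for Gpr179. In IOP eyes Gpr179 was called whichever library was left out. It was the only one called without either of the 3mo IOP libraries, Trpm1 joined it without the first 18mo IOP library, and without the second 5 were called, namely Gpr179, Trpm1, Nyx, Cabp5 (1.14) and Vsx1 (1.53).

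**Figure D5:**
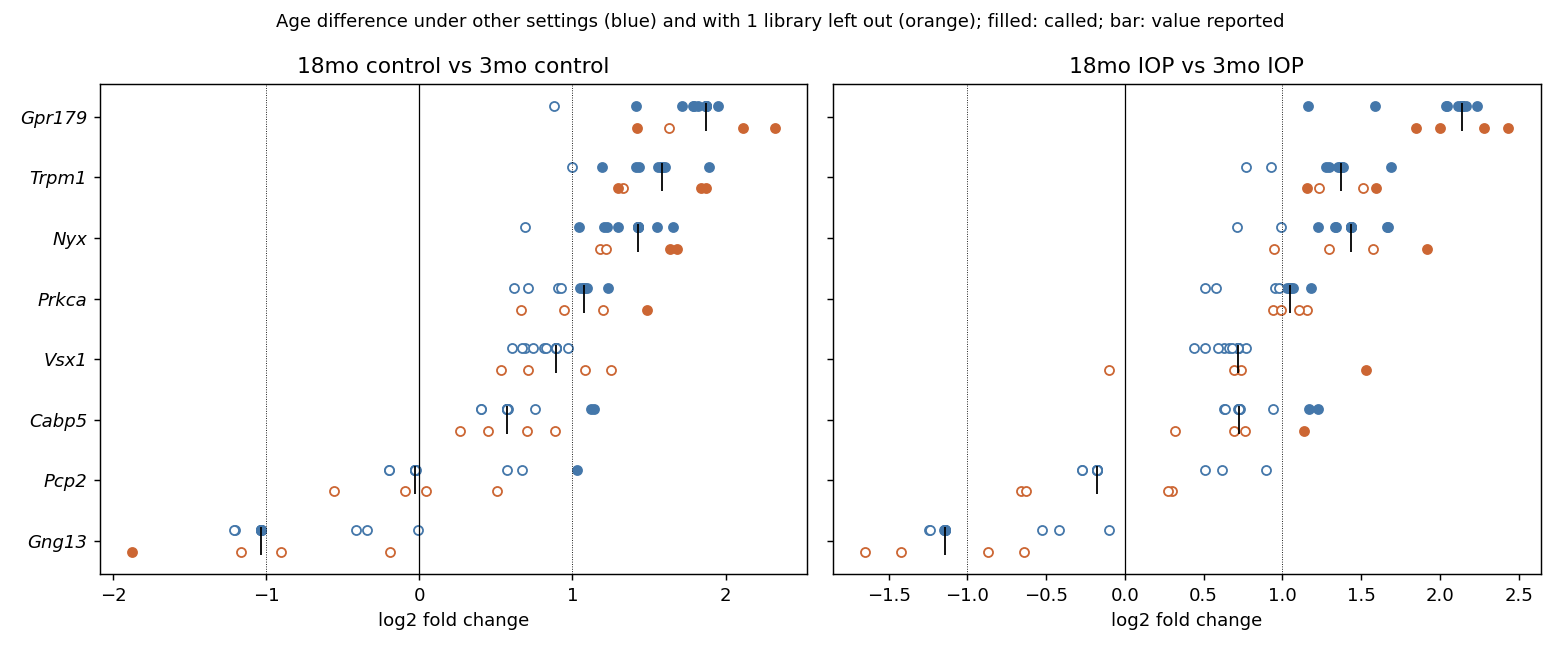
Log2 fold change with age of each bipolar cell gene (horizontal axis) in control eyes (left) and IOP eyes (right), as reported (black bar), under 14 other settings (blue) and with 1 of the 4 libraries compared left out (orange). Filled points were called. Gpr179 was called in 13 of 14 settings in control and 14 of 14 in IOP eyes, and Pcp2 lies on both sides of 0.

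Next came the partners of these proteins in the ON cascade. From a list of 9 partner genes (Grm6, Gnao1, Gnb3, Gnb5, Rgs7, Rgs11, Rgs9bp, Lrit3 and Elfn1), 5 were called higher and 0 lower in control eyes (11.6% of all genes were called higher), with a median log2 fold change of 1.02, which was 0.69 above that of the length classes. Grm6, the glutamate receptor, had 11.3 and 7.34 FPKM at 3 months and 26.6 and 36.2 at 18 months (log2 fold change 1.72 ± 0.26, limma, adjusted p = 0.00543). Rgs11, a regulator that speeds G protein shut-off, rose by 1.19 ± 0.27 (limma, adjusted p = 0.0115), and Rgs9bp, an anchor protein for such regulators in photoreceptors and bipolar cells, by 1.17 ± 0.26 (adjusted p = 0.0112). In IOP eyes 2 were called higher, Grm6 at 2.17 ± 0.26 and Rgs11 at 1.46 ± 0.27 (limma, adjusted p = 0.0029 and 0.00792), beside 10.2% of all genes, and the median was 0.74, or 0.51 above the length classes. Gnb5 and Rgs7, which form a complex with GPR179, had log2 fold changes of -0.48 and -0.66 in control and -0.58 and -0.58 in IOP eyes, lower without overlap and not called, and were picked out after their values were seen. In control eyes the call of Rgs11 was lost without the second 3mo control library (1.06) or the second 18mo control library (0.94), and that of Rgs9bp without the second 3mo control (0.78), the first 18mo control (1.06) or the second 18mo control library (1.28). Without the length trend Rgs9bp was at 0.74 and not called, without both trends Rgs9bp (0.67) and Rgs11 (0.85) were not, and with median-of-ratios size factors Rgs9bp (0.998) was not. In IOP eyes that of Rgs11 was lost without the first (1.57) or second (1.36) 3mo IOP library. Grm6 was called under every alternative and with any library left out in both.

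Of 24 further genes known from bipolar cells, 6 were called higher and 0 lower in each comparison of age, beside 11.6% of all genes called higher in control and 10.2% in IOP eyes. The medians were 0.46 and 0.48, which lay 0.096 and 0.22 above those of the length classes. Prdm8 and Lhx4, transcription regulators of bipolar subsets, rose by 1.64 ± 0.22 and 1.62 ± 0.28 (limma, adjusted p = 0.00484 and 0.00642). Prdm8 had 14.8 and 9.51 FPKM in 3mo control and 38.1 and 38.0 in 18mo control retinas, and the groups did not overlap. In IOP eyes Lhx4 rose by 1.46 ± 0.28 and Prdm8 by 1.42 ± 0.22 (limma, adjusted p = 0.00888 and 0.00545). Prdm8 was called under every alternative and with any library left out, and Lhx4 was not called without the second 18mo control library (1.44) in control eyes or without the first (1.55) or second (1.36) 3mo IOP library in IOP eyes. The list was mixed, with 15 of 24 genes above 0 and 9 below in either comparison.

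Markers of other cells were compared with age as well, beside 11.6% of all genes called lower in each comparison and 11.6% and 10.2% called higher in control and IOP eyes. Their part in the bipolar values was not tested. Ganglion cell markers fell, with 6 of 9 called lower in control and 8 of 9 in IOP eyes and summed levels of 337 to 637 FPKM in 3mo control against 38.5 to 86.0 in 18mo control retinas. Of 7 Muller glia markers 4 were called higher in control and 6 in IOP eyes, and all 7 had a positive log2 fold change in each. Of the 8 rod markers 1 was called lower in each comparison, and the summed rod level was 21673 to 25170 FPKM in 3mo control and 16265 to 18293 in 18mo control retinas. Amacrine markers had 1 of 7 called lower in each. Of 5 tested pigment epithelium markers 4 were called lower in each, with median log2 fold changes of -3.27 in control and -4.27 in IOP eyes. Microglial markers had 3 of 6 called higher in each, and cone markers 2 of 7 higher in control and 1 of 7 lower in IOP eyes.

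The next question was whether a single IOP elevation changed bipolar cell genes, compared with the same control libraries as above. At 3 months 0 of 8 were called by limma, 0 had an unadjusted p under 0.05, and voom in limma on the recovered reads also called 0. Of all genes 0.568% were called higher and 0.00728% lower. All 8 members overlapped between 3mo IOP and 3mo control retinas, where 28.6% of all genes were higher and 3.95% lower without overlap, and their log2 fold changes lay between -0.32 for Cabp5 and 0.35 for Trpm1, with standard errors of 0.27 to 0.55. Prkca was at -0.11 with a 95% interval from -0.72 to 0.50, Trpm1 at 0.35 from -0.28 to 0.98, and Gng13 at 0.02 from -1.26 to 1.29. The intervals of 5 members (Gng13, Pcp2, Vsx1, Cabp5 and Gpr179) reached a fitted log2 fold change of 1 in size. Those of Prkca, Trpm1 and Nyx did not. The fit used log2(FPKM + 0.5), which understates fold changes, so for Trpm1 and Nyx a 2-fold change in FPKM is not excluded. Gpr179 was at -0.27, Pcp2 at -0.22, Vsx1 at -0.10 and Nyx at -0.10.

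At 18 months 0 of 8 were called either, with 0 at an unadjusted p under 0.05 and 0 by voom, beside 0.117% called higher and 0.00728% lower over all genes. Again all 8 overlapped, beside 36.5% of all genes that were higher and 9.89% lower without overlap. The log2 fold changes lay between -0.38 for Pcp2 and 0.14 for Trpm1, with Vsx1 at -0.28, Cabp5 at -0.17, Prkca at -0.13, Nyx and Gng13 at -0.09 and Gpr179 at -0.01. The interval for Gpr179 ran from -0.78 to 0.77 and that for Trpm1 from -0.49 to 0.77. Over the 8 members the limits reached -1.44 and 1.18. The intervals of Pcp2, Gng13 and Vsx1 reached a fitted log2 fold change of 1 in size. For Nyx a 2-fold change in FPKM is not excluded either, because the fit understates fold changes of low genes.

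The IOP response did not pass a test of difference between the ages for any member (interaction in limma, adjusted p = 0.9999 for each, 0 of 8 at an unadjusted p under 0.05). Of all genes 0% passed. The median of the interaction over the 8 genes was -0.07, against -0.04 over all tested genes, and its 95% intervals reached from -1.92 to 1.69 over the members.

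Repeated IOP elevation was examined in the second table. None of the 8 genes was called in 4xIOP against 4xIOP control retinas, 0 had an unadjusted p under 0.05, and voom called 0. This stands beside 5.45% of all genes called higher and 0.693% called lower (88.7% of called genes were higher, and 77.9% with quantile normalization). Prkca had 16.8 and 17.9 FPKM in 4xIOP control and 14.4 and 14.0 in 4xIOP retinas, lower without overlap, with a fold change of -0.28 ± 0.23 on the log2 scale (limma, adjusted p = 0.751). Vsx1 had 4.14 and 4.49 against 3.67 and 3.55 FPKM, and Cabp5 21.7 and 18.4 against 16.4 and 17.5. Both were lower without overlap, at -0.23 ± 0.19 and -0.23 ± 0.24 (limma, adjusted p = 0.759 and 0.839).

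Trpm1 was the only member higher without overlap after 4 elevations, with 35.2 and 39.5 FPKM in 4xIOP control and 43.7 and 42.0 in 4xIOP retinas (0.20 ± 0.27, limma, adjusted p = 0.896). The other 4 overlapped. Gpr179 had 7.77 and 10.6 against 8.50 and 4.99 FPKM (-0.45 ± 0.26, limma, adjusted p = 0.519), the smallest p of the set, and with 1 library left out it ran from -0.80 to -0.092. Pcp2 had 137 and 119 against 77.7 and 120, Gng13 152 and 151 against 114 and 202, and Nyx 2.40 and 3.07 against 2.80 and 3.29 FPKM. Their log2 fold changes were -0.40, -0.00024 and 0.14, and that of Pcp2 ran from -0.71 to -0.082 with 1 library left out. The 1 member higher and 3 lower without overlap stand beside 27.7% and 12.7% of all genes, and the median of the 8 was -0.23 against 0.10 for all tested genes.

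Among the 9 cascade partners 1 was called higher and 1 lower after repeated elevation, beside 5.45% and 0.693% of all genes. Without overlap 1 was higher and 4 were lower, beside 27.7% and 12.7% of all genes. The median log2 fold change was -0.29 against 0.10 for all tested genes. Gnb3, a G protein beta subunit of ON bipolar cells and cones, had 86.6 and 90.0 FPKM in 4xIOP control and 262 and 343 in 4xIOP retinas (1.76 ± 0.35, limma, adjusted p = 0.00575). Rgs9bp had 74.9 and 84.1 against 34.1 and 31.3 FPKM (-1.27 ± 0.28, limma, adjusted p = 0.0117). The groups were apart for both, but both calls were lost without the first 4xIOP control library (1.73 and -1.35, limma, adjusted p = 0.466 and 0.383) or the second (1.79 and -1.18, adjusted p = 0.498 and 0.664), and that of Gnb3 also with no filter on low values (1.76, adjusted p = 0.0504). After a single elevation Gnb3 was at 0.80 ± 0.29 at 3 months and 0.91 ± 0.29 at 18 months, and Rgs9bp at -0.68 ± 0.26 at 18 months, in each case without overlap and not called (limma, adjusted p = 0.442, 0.291 and 0.433). Gng13, which forms a beta-gamma pair with Gnb3 in ON bipolar cells, overlapped its control in the same libraries, and the difference between the 2 genes was not tested.

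Of the 24 further bipolar genes 1 was called higher and 0 lower after repeated elevation, beside 5.45% and 0.693% of all genes. Kcng4, a modifying subunit of voltage-gated potassium channels found in a type of cone bipolar cell, had 3.00 and 3.43 FPKM in 4xIOP control and 8.48 and 9.09 in 4xIOP retinas (1.32 ± 0.20, limma, adjusted p = 0.000627). It was at 0.71 ± 0.23 and 0.64 ± 0.23 after a single elevation at 3 and 18 months, without overlap and not called (limma, adjusted p = 0.325 and 0.352). Lrrtm1, a synaptic adhesion protein, was at 0.36 ± 0.29 at 3 months, and Irx5, a homeodomain factor, at 0.44 ± 0.20 at 18 months, likewise apart and not called (limma, adjusted p = 0.928 and 0.578). Lrrtm1 lies opposite to Ctnna2. In 4xIOP retinas 5 of 6 microglial and 5 of 5 lens markers were called higher and 3 of 7 cone and 2 of 3 tested pigment epithelium markers lower. Without overlap 7 of 8 rod markers were lower, beside 12.7% of all genes. The part of these cells in the values of Gnb3, Rgs9bp and Kcng4 was not tested.

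Genes with profiles nearest to each member over the 8 libraries of the first table were taken as those with the smallest root mean square difference of centred log2 values. For Gpr179 the nearest was its partner Grm6, with a difference of 0.11, followed by Igfn1 (0.15), and for Nyx they were Celf3 and the bipolar glutamate receptor gene Grik1 (both 0.11). For Gng13 they were the cone gamma subunit Gngt2 (0.17) and Tmem141 (0.19). Prkca had Aak1 and Pcnx (both 0.06), Trpm1 had Hap1 and Pcdhgc3 (both 0.10), and Vsx1 had Hpcal4 (0.11) and Kcnj9 (0.12). Pcp2 had Nrn1l (0.13) and Plekhd1os (0.14), and Cabp5 had Slc5a8 and Nxpe4 (both 0.16).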

How the data were processed

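Poly(A)-enriched strand-specific libraries were aligned by the authors with STAR 2.7.8a to mm10 and counted with HOMER in exons on the transcribed strand, 1 isoform per gene. The values the authors deposited are FPKM, in 1 table per experiment, fitted apart. Groups came from the labels. FPKM times length gave whole reads (within 0.15 read) for at least 99.986% of values checked, and so the tags per library.

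Genes averaging 0.5 FPKM or more were fitted as log2(FPKM + 0.5) in limma 3.58.1 under R 4.3.3 (group means, moderated variances with a trend), with 4 residual degrees of freedom (prior 4.12) in the first table and 2 (prior 10.6) in the second. This scale understates fold changes of low genes such as Nyx. The steps were tested on simulated data. For the fit, the simulated noise was independent between libraries and had no trend with transcript length, so it does not bear on such trends. All members are named throughout. From the 2 further bipolar lists, called genes without overlap were named by fold (up to 3 per direction, or 2 uncalled), and 1 gene so chosen is not reported here. The members and lists were chosen with earlier results of these data known. The study calls the samples biological replicates, and p-values measure the spread between them, with 2 per group.

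Alternatives were pseudocounts of 0.1 and 1, no filter, quantile normalization, median-of-ratios size factors, a minimum average of 2 FPKM, no variance trend, a replicate block, the adjusted p alone, length or length and GC trends removed (splines with 5 degrees of freedom), voom on recovered reads, only the 2 groups compared, and each library left out. A block with crossed numbers was added after seeing the data.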

Additional observations from a re-analysis of the deposited data

How the results depend on the processing

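The 4 members called with age kept a positive log2 fold change under all alternatives run, but their calls did not all hold. With length and GC trends removed, all 4 calls were lost in control eyes, where the 1 member called was Cabp5. With the length trend alone removed, 4 were called there, Pcp2 in place of Prkca (0.62). In IOP eyes 1 was called with the length trend removed (Gpr179) and 2 with both trends removed (Gpr179 and Cabp5). Quantile normalization also made Cabp5 called, at 1.14 in control and 1.17 in IOP eyes (limma, adjusted p = 0.0145 and 0.01375). Of all genes 1242 and 1307 were then called higher. With 1 library left out, the count ran from 0 to 5 in control and from 1 to 5 in IOP eyes, while all genes called higher ran from 610 to 2624 and from 401 to 1371. The comparisons of IOP with control and the interaction had 0 members called under every alternative. Median-of-ratios size factors shifted the split of all called genes in control eyes from 50.1% higher to 35.0% and the median of all tested genes from 0.16 to 0.0096, and there Prkca (0.91, and 0.95 in IOP eyes) was no longer called. Nor was Prkca called by voom on the recovered reads (0.92 and 0.98).

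Direction changed among values that were not called as reported. Pcp2 with age became 0.57 under quantile normalization, 1.03 with the length trend removed, which was then called, and 0.67 with both trends removed in control eyes, and 0.51, 0.90 and 0.61 in IOP eyes. For IOP at 3 months Gng13 became -0.18 with median-of-ratios, -0.010 with quantile normalization, -0.091 and -0.16 with length or both trends removed and -0.18 with voom, Prkca 0.084 and 0.11 and Nyx 0.017 with trends removed. For IOP at 18 months Trpm1 became -0.054 under quantile normalization and Gpr179 0.11 and 0.12 with trends removed, and for 4xIOP Nyx became -0.039 under quantile normalization. The cause was not tested. With 1 library left out, ranges that crossed 0 were, with age, -0.55 to 0.50 (control) and -0.66 to 0.30 (IOP) for Pcp2 and -0.10 to 1.53 for Vsx1 (IOP). For IOP at 3 months they were -0.52 to 0.30 for Prkca, -0.75 to 0.31 for Pcp2, -0.82 to 0.86 for Gng13, -0.31 to 0.11 for Nyx, -0.29 to 0.082 for Vsx1 and -0.72 to 0.18 for Gpr179. At 18 months they were -0.11 to 0.39 for Trpm1, -0.86 to 0.10 for Pcp2, -0.58 to 0.24 for Cabp5, -0.60 to 0.41 for Gng13, -0.58 to 0.39 for Nyx, -1.10 to 0.53 for Vsx1 and -0.30 to 0.29 for Gpr179, and for 4xIOP -0.41 to 0.41 for Gng13 and -0.014 to 0.29 for Nyx.

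With the replicate number as a block the same 4 members were called with age and 0 elsewhere. Deviations of same-numbered control and IOP libraries had correlations of -0.28, -0.53 and -0.29, which cannot show whether eyes shared an animal. As pairs are not stated, the numbers were not taken as pairs, and the main fit treated all libraries as independent. With crossed numbers 5 members were called in each comparison of age, the fifth being Gng13, called lower (-1.03 and -1.15), and 0 for IOP, while calls over all genes rose from 79 to 312 for IOP at 3 months and from 17 to 306 at 18 months. Calls over all genes for age in control eyes were 3185, 6297 by adjusted p alone and 1332 with both trends removed, and 3000, 5846 and 1434 in IOP eyes. For IOP at 3 months they lay between 3 and 120 and at 18 months between 0 and 63 under the other alternatives that kept all libraries, and for 4xIOP they were 843, and 475 at a mean of at least 2 FPKM.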
